A study of Mus musculus with 22 samples.

Results

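The mevalonate and sterol pathway builds cholesterol from acetyl-CoA through a chain of soluble and endoplasmic reticulum enzymes. Its transcripts are switched on by SREBP2, a membrane-bound transcription factor that SCAP escorts to the Golgi for cleavage when sterols are low. INSIG1 and INSIG2 hold SCAP back in the endoplasmic reticulum when sterols are plentiful. Sterol-laden cells also make oxysterols, which activate the LXR receptors and with them the efflux pumps ABCA1 and ABCG1. The liver is a main site of cholesterol synthesis, and several steps need iron: lanosterol demethylase (Cyp51) is a haem protein, and the sterol oxidases Msmo1 and Sc5d hold non-haem iron.

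Described here are 28 genes of this pathway, taken from the deposited tables by gene symbol: 20 synthesis enzymes, 4 genes of SREBP2 control (Srebf2, Scap, Insig1 and Insig2), the sterol transfer protein Stard4, and 3 genes on the LXR side (Mylip, Abca1 and Abcg1). All 28 were present among the 55401 genes of the hepatocyte table and the 55573 of the stellate cell table, and all 28 passed the filter on low counts in both. RNA was measured in 22 libraries of primary liver cells from wild-type C57BL/6 mice on chow diet, each in medium with 10% serum, plated for 24 h and then treated for 24 h. The groups were hepatocytes with DFO (deferoxamine, an iron chelator, 100 uM; 6 libraries), hepatocytes with placebo (6 libraries), hepatic stellate cell cultures with iron (100 uM; 5 libraries), and stellate cell cultures with placebo (5 libraries). The labels give neither age nor sex nor the iron compound, and do not tie single libraries to animals or cultures; the protocol speaks of 4 biological replicates in each group, fewer than the libraries listed. The p-values therefore cover the spread among the libraries at hand, which may be technical.

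Levels are given as TMM-normalised CPM (counts per 1000000, scaled between libraries) or, where genes are compared with each other, as FPKM (per kilobase of exon). Changes are log2 fold changes ± SE from edgeR's quasi-likelihood test, adjusted over all genes tested, with 0.05 as the threshold. Hepatocyte libraries held 19342490 to 41839154 counts in total, and stellate libraries 12058226 to 32067635. DFO cultures had 632.6 ± 13.7 CPM of Bnip3, a gene switched on by hypoxia-inducible factor, against 45.3 ± 2.25 CPM in control hepatocytes (SD, n = 6 each). Tfrc, the transferrin receptor, whose mRNA is stabilised when iron is short, averaged 443.3 ± 52.8 CPM with DFO and 112.8 ± 7.82 CPM in control hepatocytes. In the stellate cultures 3 libraries stood apart: control 3, iron 3 and iron 5 had summed FPKM of 424253 to 503333 against 297988 to 333718 in the other 7, and iron 5 held counts for only 12535 genes. Each stellate result is therefore given over all 10 libraries and over the 7 others (3 iron, 4 control).

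Stretches of 5 promoters are printed as examples: Hmgcs1 and Idi1 as enzymes, Insig1 and Insig2 as the brakes, and Abca1 as an efflux gene. With DFO Idi1 had the largest drop of the 28 members, while Hmgcs1 changed little (−0.23 on the log2 scale). Hmgcs1 was the member found with the long sterol element, as given below. Each is the 150 bases just before an annotated start, 5′ to 3′ on the gene's strand, from RefSeq (GRCm38.p6, the mm10 assembly). Capitals mark TCACNCCAC or its core CACNCCAC (forms of the sterol regulatory element that SREBP2 binds), CCAAT (the NF-Y box) and ACGTG (the core of a hypoxia response element, which also lies within the E-box CACGTG), each on either strand. The core CACNCCAC is contained in TCACNCCAC, so every match to the longer form is also a match to the shorter one.
Hmgcs1, chr13:119690201-119690350, + strand: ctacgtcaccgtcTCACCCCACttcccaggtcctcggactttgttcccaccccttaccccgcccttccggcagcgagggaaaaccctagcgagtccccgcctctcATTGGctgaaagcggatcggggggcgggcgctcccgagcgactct
Idi1, chr13:8885456-8885605, + strand: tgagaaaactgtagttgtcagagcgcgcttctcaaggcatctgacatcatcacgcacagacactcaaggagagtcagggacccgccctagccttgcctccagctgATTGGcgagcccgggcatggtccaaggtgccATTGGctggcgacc
Insig1, chr5:28071262-28071411, + strand: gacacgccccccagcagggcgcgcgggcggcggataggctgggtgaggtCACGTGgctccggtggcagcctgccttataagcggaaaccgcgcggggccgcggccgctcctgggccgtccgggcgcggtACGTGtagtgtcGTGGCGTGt
Insig2, chr1:121332590-121332739, - strand: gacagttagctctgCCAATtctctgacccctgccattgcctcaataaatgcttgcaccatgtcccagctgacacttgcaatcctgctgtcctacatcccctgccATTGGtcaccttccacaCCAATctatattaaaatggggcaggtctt
Abca1, chr4:53159896-53160045, - strand: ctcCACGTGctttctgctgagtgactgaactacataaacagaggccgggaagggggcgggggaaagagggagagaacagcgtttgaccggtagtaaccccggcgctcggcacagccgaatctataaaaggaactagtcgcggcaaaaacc

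The motif search covered 250 bases before each start in the 23 member genes with an entry; Fdps, Fdft1, Sqle, Stard4 and Abcg1 have none. CCAAT was present in 20 of the 23, and in 37.5% of all 27025 genes searched over the same length. The long sterol element was found in Hmgcs1, 1 of the 23, against 1.22% of all genes. Its core lay in Acat2, Hmgcs1 and Insig1, 3 of the 23, against 6.05% of all genes. ACGTG occurred in 6 of the 23 (Abca1, Dhcr7, Hsd17b7, Insig1, Sc5d and Scap), against 18.5% of all genes. These matches describe letters in a window and are not binding sites. Insig2 has 3 annotated starts, of which the printed stretch precedes the most upstream one, and the gene-level counts do not separate them.

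Hepatocytes with and without DFO were set against each other first, for the effect of iron removal. Of the 20 synthesis enzymes, 16 fell with DFO, 2 rose and 2 did not pass the test, with a median log2 change of −0.34. All genes tested had a median of −0.00, and 58.0% of them passed the test (30.1% fell and 27.9% rose), so any single call is common in these libraries. The enzyme groups did not overlap, all DFO libraries below all control libraries, for 11 of the 20, against 19.4% of all genes in that direction (16.6% in the other, 35.9% in either). Summed over the 20 enzymes, the level was 148.6 to 161.1 FPKM in DFO libraries and 192.2 to 196.2 FPKM in control libraries. Within each library the median enzyme lay 0.30 to 0.48 below the control mean on the log2 scale in the 6 DFO libraries, so that the lower enzyme level was present in every one.

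**Figure D1:**
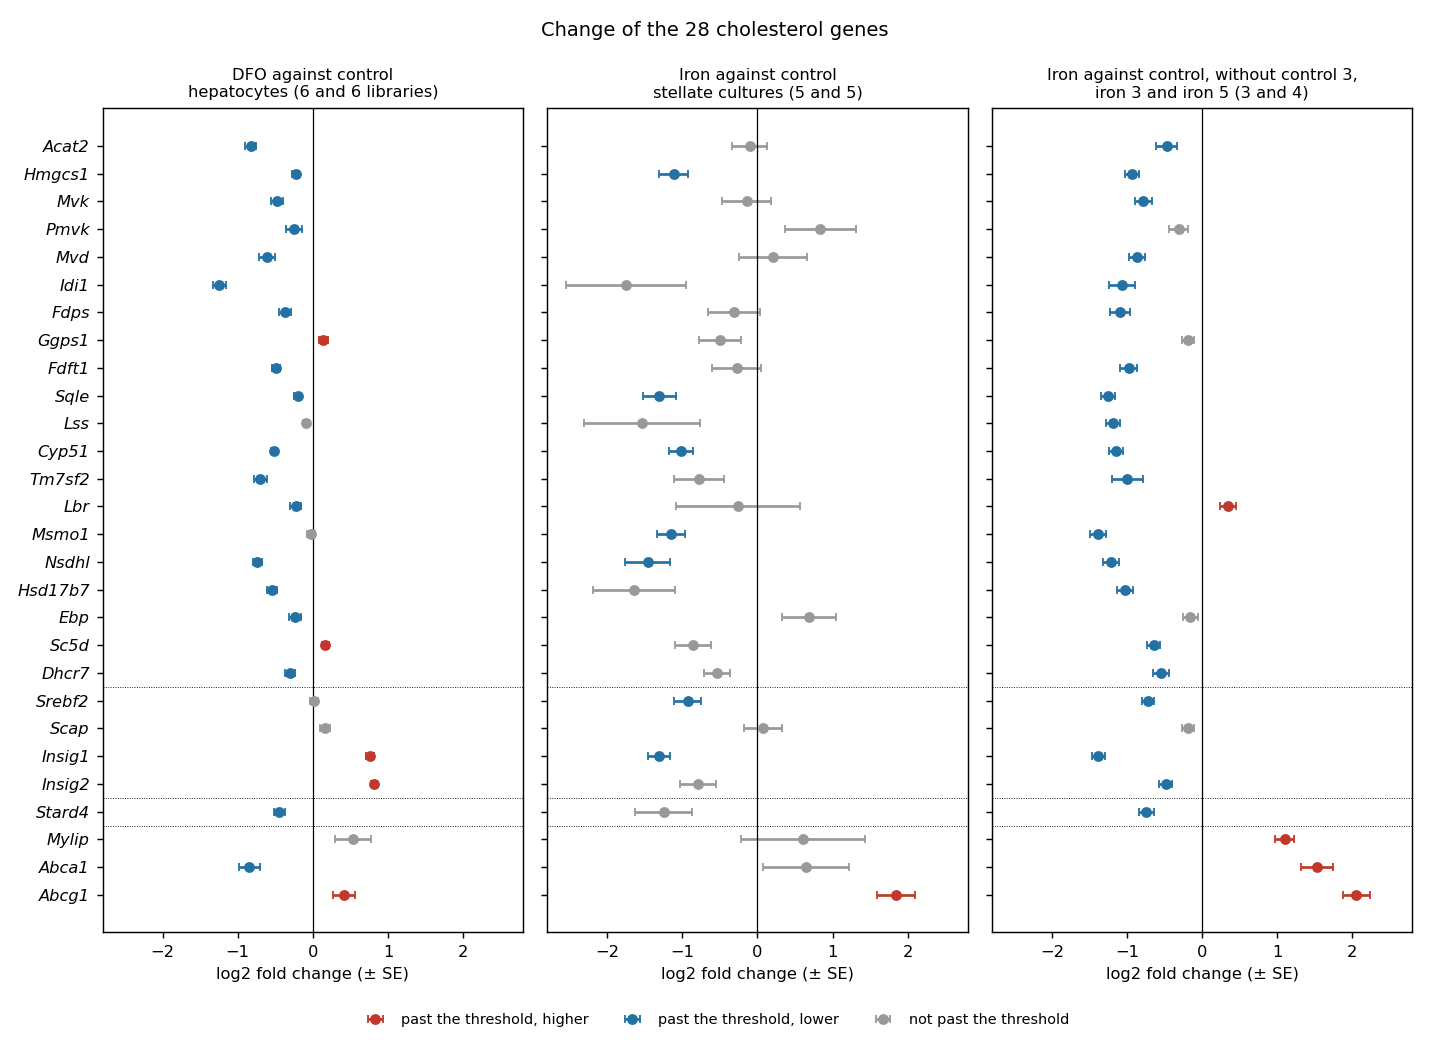
Log2 fold change (x axis, ± SE) of each of the 28 genes (y axis, pathway order, dotted lines separating enzymes, SREBP2 control, sterol transfer and LXR side) for DFO against control hepatocytes and for iron against control stellate cultures over 10 and 7 libraries. Colour shows the edgeR call: 16 of 20 enzymes are lower with DFO while Insig1 and Insig2 are higher, and in the stellate cultures 5 enzymes are lower over 10 libraries and 16 over 7. Of all genes, 30.1% are lower with DFO, and 3.37% and 19.8% with iron over 10 and 7 libraries.

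The early section of the pathway, from acetyl-CoA to prenyl diphosphates, showed 7 of 8 enzymes lower with DFO and a median log2 change of −0.42. Of all genes 30.1% were lower and 27.9% higher. Idi1, the isomerase that interconverts the isoprenoid C5 units, had the largest drop of all 28 members. Its level was 2.23 to 3.02 CPM in DFO libraries (median 2.52) and 5.66 to 6.37 CPM in control libraries (median 6.16), with no overlap. The log2 change of Idi1 (chromosome 13, 8885501 to 8892451, mm10) was −1.24 ± 0.09 (adjusted p = 2.51e-09). Acat2, the cytosolic thiolase at the entry to the pathway, had 11.2 to 15.3 CPM with DFO (median 13.4) and 21.7 to 25.5 CPM in controls (median 23.7). Its log2 change was −0.83 ± 0.07 (adjusted p = 1.60e-08), and again every DFO library lay below every control.

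Mvd, the decarboxylase that yields isopentenyl diphosphate, changed by −0.61 ± 0.11 and mevalonate kinase (Mvk) by −0.48 ± 0.08 on the log2 scale. Fdps, which makes farnesyl diphosphate, changed by −0.37 ± 0.08. Hmgcs1, the HMG-CoA synthase and the most abundant enzyme transcript per length in control hepatocytes, moved little: 19.4 ± 1.42 FPKM with DFO and 23.3 ± 0.62 FPKM in controls, a log2 change of −0.23 ± 0.05 (adjusted p = 0.000593). Phosphomevalonate kinase (Pmvk) was at −0.25 ± 0.10 with an adjusted p of 0.0455, and its call was lost in 9 of the 12 fits that left out 1 library. Ggps1, which makes geranylgeranyl diphosphate for protein prenylation, was the member of this section that rose, by 0.14 ± 0.05 (adjusted p = 0.0334), a call lost in 8 of those 12 fits.

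Past farnesyl diphosphate, in the squalene and sterol section, 9 of 12 enzymes fell, 1 rose and 2 did not pass, with a median log2 change of −0.27. The shares over all genes were 30.1% lower and 27.9% higher. Squalene synthase (Fdft1) had 45.6 to 58.1 CPM with DFO (median 49.9) and 67.9 to 74.0 CPM in controls (median 70.3), a change of −0.49 ± 0.05 (adjusted p = 5.73e-07). Nsdhl, a sterol decarboxylase acting in C4 demethylation, had 22.2 to 26.4 CPM with DFO (median 24.0) and 36.7 to 43.0 CPM in controls (median 41.0). Its log2 change of −0.74 ± 0.06 (adjusted p = 1.00e-08) was the lowest of this section. Neither of these pairs of groups overlapped. Tm7sf2, a sterol C14 reductase, was at −0.70 ± 0.08, and the 3-ketosterol reductase Hsd17b7 at −0.54 ± 0.07. Squalene epoxidase (Sqle), a known control point of the pathway, was at −0.20 ± 0.04, with 53.5 ± 1.34 CPM in DFO libraries and 61.5 ± 3.01 CPM in control libraries (SD, n = 6 each). Dhcr7, the reductase that competes with vitamin D formation, was at −0.31 ± 0.06, the isomerase Ebp at −0.24 ± 0.08 and Lbr, a lamin-binding C14 reductase, at −0.23 ± 0.07. Lanosterol synthase (Lss), at −0.09 ± 0.04, did not pass (adjusted p = 0.0877), though it did in both limma fits on FPKM (adjusted p of 0.0186 and 0.0201).

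The 3 iron-holding enzymes went different ways under the chelator. Cyp51, the haem enzyme, had 39.5 to 43.3 CPM with DFO (median 42.3) and 58.1 to 61.7 CPM in controls (median 60.2), a log2 change of −0.52 ± 0.04 (adjusted p = 1.05e-08). Msmo1, the C4 methyl oxidase, averaged 75.9 ± 3.91 CPM with DFO and 76.9 ± 4.80 CPM in controls, a difference within the spread between libraries (−0.02 ± 0.05, adjusted p = 0.746). Sc5d, the C5 desaturase, rose by 0.16 ± 0.05 (adjusted p = 0.00594) with groups that overlapped.

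**Figure D2:**
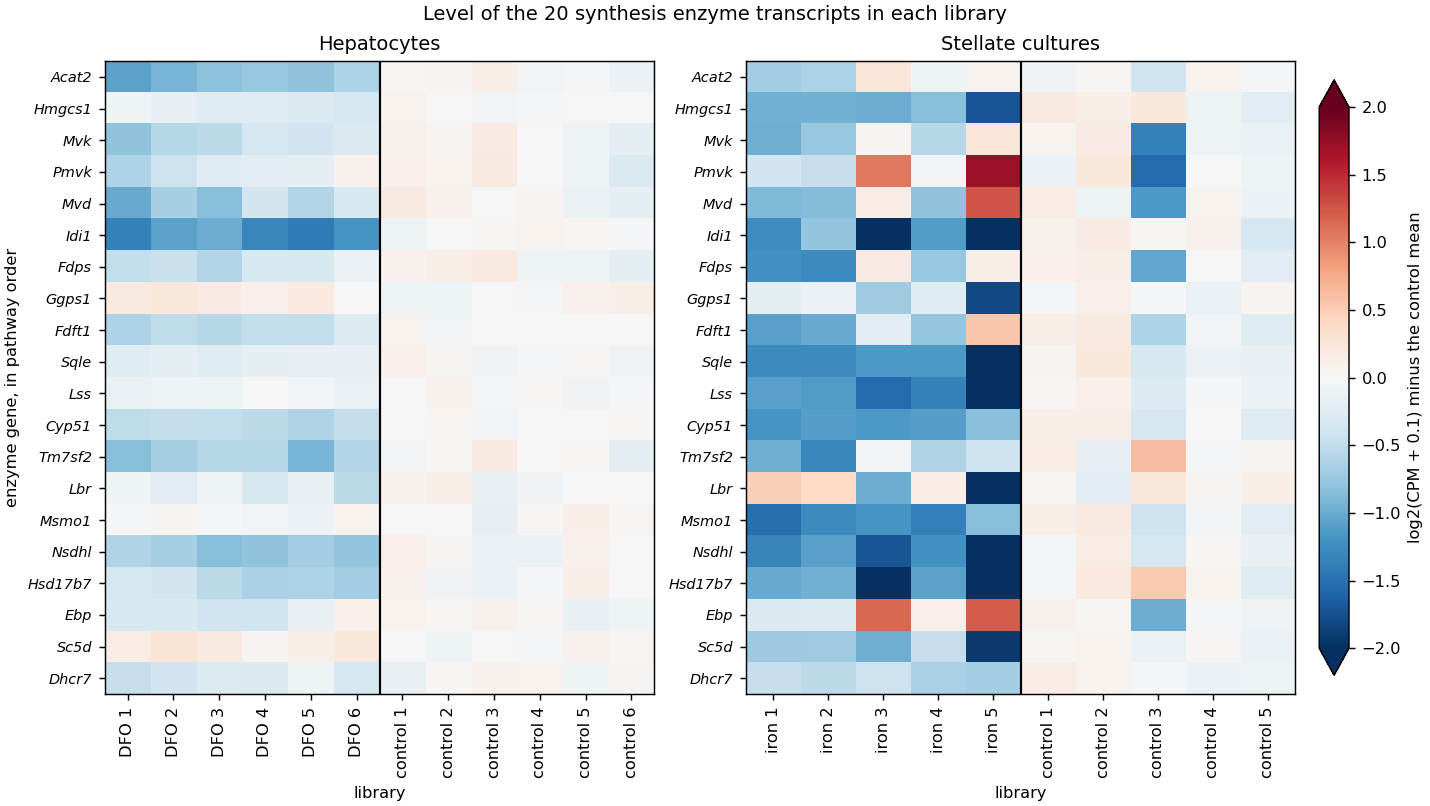
Level of the 20 synthesis enzymes (rows, in pathway order) in each library (columns), as log2(CPM + 0.1) minus a control mean. That mean is of all control libraries in hepatocytes, and of the controls without control 3 in stellate cultures. Blue is below and red above that mean, and the scale stops at 2 in either direction. DFO libraries are blue in most rows, with Ggps1, Sc5d and Msmo1 as exceptions; among the stellate libraries, iron 3, iron 5 and control 3 differ from the rest of their own groups.

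Of the 4 genes of SREBP2 control, 2 rose with DFO, 2 did not pass the test and none fell. Of all genes 58.0% passed (27.9% higher, 30.1% lower), so this count is not by itself a result about the control genes. Srebf2 (chromosome 15, 82147181 to 82205379, mm10), the gene of SREBP2 itself, had 105.8 to 123.3 CPM with DFO (median 117.8) and 107.8 to 123.4 CPM in controls (median 113.5). These ranges coincided, and the log2 change was 0.01 ± 0.05 (adjusted p = 0.824). Scap had 84.1 to 103.7 CPM with DFO (median 91.1) and 70.7 to 89.8 CPM in controls (median 83.7), and did not pass (0.16 ± 0.07, adjusted p = 0.0525). It did pass with DESeq2 (adjusted p = 0.0351), RLE scaling (0.0401), voom (0.0153) and in 5 of the 12 fits that left out 1 library, so its call depends on the setting.

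Both Insig transcripts rose. Insig1 (chromosome 5, 28071363 to 28078662, mm10) had 30.5 to 35.4 CPM in DFO libraries (median 33.5) and 17.5 to 20.7 CPM in control libraries (median 19.5). Insig2 (chromosome 1, 121304353 to 121332589, mm10) had 177.6 to 182.6 CPM with DFO (median 178.4) and 95.1 to 108.3 CPM in controls (median 102.6). Neither gene's groups overlapped. The changes were 0.76 ± 0.05 for Insig1 (adjusted p = 2.27e-09) and 0.81 ± 0.04 for Insig2 (adjusted p = 3.57e-11), or 1.70-fold and 1.75-fold. Per length, Insig2 was the more abundant in every hepatocyte library. The ratio of Insig1 to Insig2 FPKM was 0.207 ± 0.009 with DFO and 0.214 ± 0.020 in controls (SD, n = 6 each), so the balance between them stayed within the spread while their sum was 61.5 ± 1.13 FPKM with DFO and 36.2 ± 0.68 FPKM in controls. In normal sterol feedback Insig1 is an SREBP target that moves with the enzymes; here its log2 change had the opposite sign to that of 18 of the 20 enzymes.

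**Figure D3:**
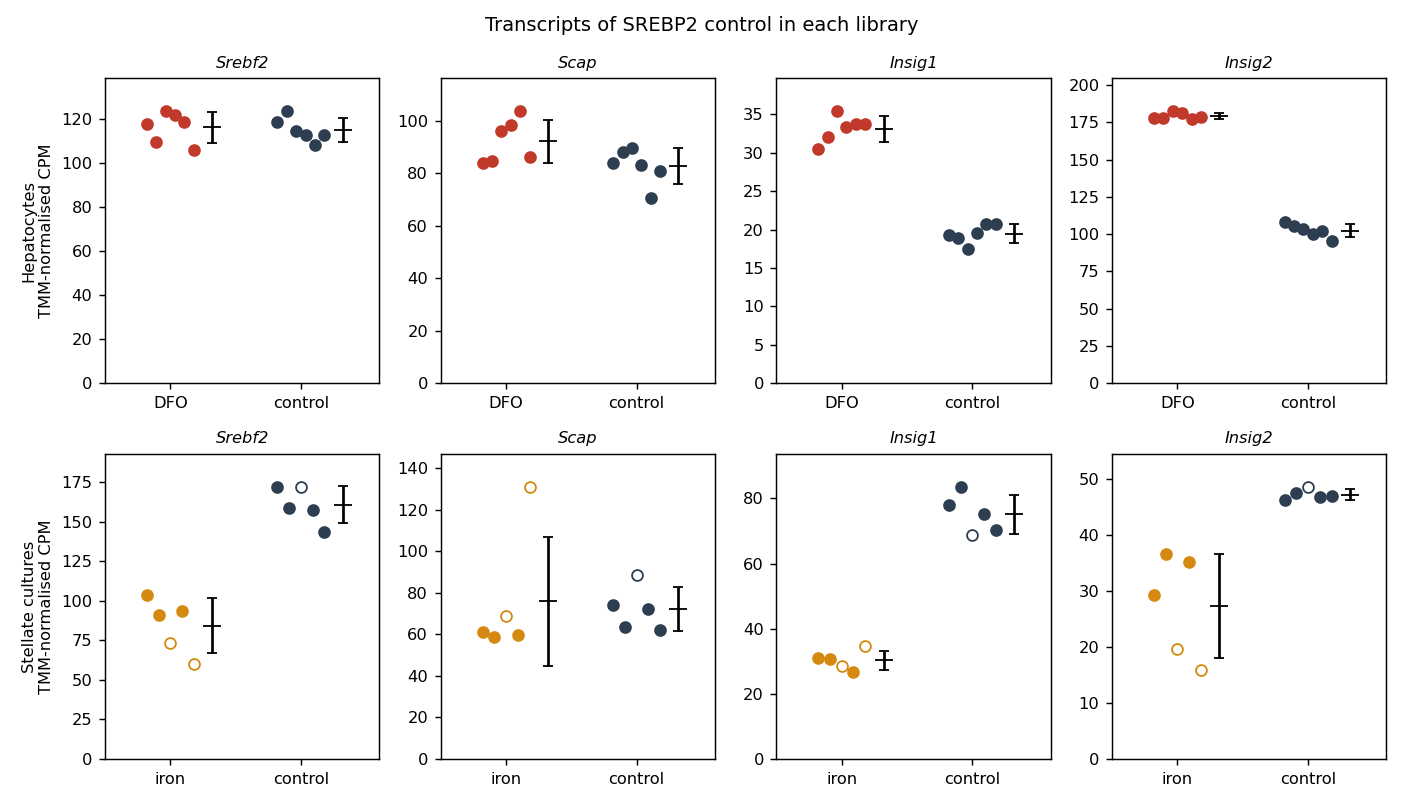
TMM-normalised CPM (y axis, from 0) of Srebf2, Scap, Insig1 and Insig2 in every library of the hepatocytes (top) and stellate cultures (bottom); bars are mean ± SD, and open circles are stellate libraries control 3, iron 3 and iron 5. Insig1 and Insig2 lie higher with DFO in hepatocytes and lower with iron in stellate cultures, without overlap.

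Stard4, which carries cholesterol between membranes and is a known SREBP2 target, had 14.7 to 18.9 CPM in DFO libraries (median 16.8) and 19.999 to 25.1 CPM in control libraries (median 22.7). It fell by 0.45 ± 0.07 on the log2 scale (adjusted p = 3.96e-05), like most enzymes. Abca1 (chromosome 4, 53030787 to 53159895, mm10), which loads cholesterol onto apolipoprotein A-I, had 18.4 to 43.6 CPM with DFO (median 32.8) and 51.1 to 68.6 CPM in controls (median 58.2). The groups did not overlap, and the log2 change was −0.85 ± 0.14 (adjusted p = 5.33e-05). Abcg1, which passes cholesterol to HDL, was scarce in hepatocytes, with 1.63 to 2.56 CPM under DFO (median 2.03) and 1.35 to 2.01 CPM in controls (median 1.42). It rose by 0.42 ± 0.15 (adjusted p = 0.0259), but leaving out 1 library brought the adjusted p to as much as 0.0721, and it was 0.0546 without the filter on low counts. Mylip, an LXR-induced ubiquitin ligase of lipoprotein receptors, had 0.754 to 1.36 CPM with DFO (median 0.962) and 0.256 to 0.942 CPM in controls (median 0.733), and did not pass (0.54 ± 0.24, adjusted p = 0.0633). Mylip did pass with DESeq2 (adjusted p = 0.0412) and in 3 of the 12 fits that left out 1 library.

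Genes around the pathway were counted from whole lists, to be read against the 58.0% of all genes that passed the test in these libraries (30.1% lower, 27.9% higher). Calls at about that rate are not a result about a list. Of 11 genes of SREBP processing and sterol-regulated degradation, 4 fell and 3 rose. Rnf145, a sterol-responsive ubiquitin ligase, rose by 0.79 ± 0.06 and Tmem97, a sterol-responsive membrane protein, fell by 0.74 ± 0.07 on the log2 scale. Erlin1, part of an endoplasmic reticulum degradation complex, changed by −0.24 ± 0.05. In the prenyl, dolichol and ubiquinone branches 7 of 14 fell and 2 rose. Those of smallest p were the ubiquinone side-chain genes Pdss1 (−1.04 ± 0.08), Pdss2 (−0.36 ± 0.06) and Coq2 (−0.32 ± 0.05), and Rabggtb, a Rab prenyltransferase subunit, which rose by 0.36 ± 0.05.

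Among 7 electron donors and scaffolds of the sterol enzymes, 3 fell and 2 rose. This count and that of the next list are again read against 58.0% of all genes (30.1% lower, 27.9% higher). The cytochrome b5 forms moved apart: Cyb5b, of the outer mitochondrial membrane, averaged 140.7 ± 3.71 CPM with DFO and 239.0 ± 10.4 CPM in controls, while Cyb5a, of the endoplasmic reticulum, averaged 801.7 ± 55.2 CPM with DFO and 585.7 ± 23.3 CPM in controls. Por, the P450 reductase, rose by 0.43 ± 0.06, and Erg28, a scaffold of C4 demethylation, fell by 0.62 ± 0.06. Of 23 genes of sterol esters, transport, LXR and efflux, 11 fell and 8 rose, with a median log2 change of −0.16. Cyp7b1, the oxysterol 7-hydroxylase, changed by −0.96 ± 0.07, the LXR receptor gene Nr1h3 by −0.69 ± 0.07, the LXR target Arl4c by −0.61 ± 0.05 and lysosomal acid lipase (Lipa) by −0.37 ± 0.04.

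Markers of cell types differed between DFO and control hepatocyte cultures beside these results. Hepatocyte markers summed to 9378 to 11477 CPM with DFO and 7974 to 9708 CPM in controls, 2 of 8 higher and 4 lower. Macrophage markers summed to 346.5 to 451.5 CPM with DFO and 299.4 to 336.2 CPM in controls, with 9 of the 13 tested higher and 1 lower. Stellate markers summed to 90.5 to 148.8 CPM with DFO and 77.5 to 97.0 CPM in controls, with 4 of the 8 tested higher and 1 lower. Sinusoidal endothelial markers summed to 89.9 to 110.8 CPM with DFO and 83.9 to 97.2 CPM in controls, with 3 of 14 higher. Cholangiocyte markers summed to 1907 to 2118 CPM with DFO and 2144 to 2620 CPM in controls, without overlap, and of the 4 tested 2 were lower and 1 higher. Lymphocyte markers summed to 0.704 to 1.10 CPM with DFO and 0.323 to 0.665 CPM in controls; Cd79a, the 1 tested, was higher (1.40 ± 0.27), and Nkg7 was at 0 throughout. In bulk RNA, fewer cells of a type and less RNA per cell cannot be told apart, and the part of these markers in the results was not tested.

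For the effect of added iron, iron-treated stellate cultures were set against placebo. Over 10 libraries 5 of the 20 enzymes fell and none rose, with a median log2 change of −0.66 against −0.06 for all genes. At an unadjusted p under 0.05, 10 were lower and 0 higher, with no all-gene share given here for that threshold. DESeq2 called 8 enzymes lower and 0 higher, and of all genes 1280 lower and 1615 higher. By edgeR 7.42% of all genes passed the test, 3.37% lower and 4.05% higher. The groups did not overlap for 10 enzymes, all lower with iron, against 13.4% of all genes in that direction (8.42% in the other, 21.9% in either). Over the 7 libraries 16 enzymes fell and 1 rose, with a median of −0.95 against 0.01 for all genes, where 38.1% of all genes passed (19.8% lower, 18.3% higher) and 43.7% did not overlap (22.8% lower, 20.9% higher). Leaving out iron 5 alone gave 9 enzymes lower, and of all genes 1276 lower and 1186 higher. Summed enzyme levels were 529.1 to 636.4 CPM in the 5 iron libraries and 839.8 to 1078 CPM in the 5 controls, without overlap. As FPKM the sums were 140.5 to 184.0 in the 5 iron libraries and 170.7 to 259.8 in the 5 controls, which overlapped. In the 7 libraries they were 140.5 to 154.8 against 217.2 to 259.8 FPKM, without overlap.

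Markers of other cells moved with the iron treatment and stand beside every stellate result. Macrophage and Kupffer cell markers summed to 2195 to 3522 CPM in iron libraries and 195.6 to 272.6 CPM in controls, with 13 of the 13 tested higher. Stellate markers summed to 2622 to 7642 CPM with iron and 12718 to 19251 CPM in controls; 5 of 12 were lower over 10 libraries and 10 over 7. In both sets 10 of the 12 had a negative log2 change and 2 a positive one, none of the latter called. The largest positive change was 1.11 over 10 libraries and 0.64 over 7. Lrat, which stores vitamin A in stellate cells, averaged 2.78 ± 1.93 CPM with iron and 23.0 ± 7.15 CPM in controls (SD, n = 5 each). Sinusoidal endothelial markers summed to 401.5 to 671.2 CPM with iron and 204.1 to 287.6 CPM in controls, with 7 of 14 higher and 1 lower over 10 libraries, and 13 higher and 1 lower over 7. Hepatocyte markers summed to 44.6 to 116.7 CPM with iron and 97.4 to 191.1 CPM in controls; of 8, none passed over 10 libraries and 8 were lower over 7. Cholangiocyte markers summed to 227.3 to 822.3 CPM with iron and 111.0 to 164.2 CPM in controls, without overlap, and 2 of the 4 tested were higher. Lymphocyte markers, none of which passed the filter on low counts, summed to 0.426 to 2.44 CPM with iron and 0 to 0.463 CPM in controls, and Cd3e and Ms4a1 were at 0 in both groups. Macrophages are rich in Abca1 and Abcg1, and the part of a different cell mix in the enzyme, Insig and pump values was not tested. Tfrc, which falls when iron is taken up, did not pass over 10 libraries (0.46 ± 0.46, adjusted p = 0.536) and was higher with iron over 7 (1.01 ± 0.09).

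The 5 enzymes that fell over all 10 libraries span the pathway, and in each of them every iron library lay below every control. Hmgcs1 had 60.4, 61.0, 59.0, 64.9 and 35.3 CPM in iron libraries 1 to 5, against 132, 129, 136, 109 and 102 CPM in controls 1 to 5. Its log2 change was −1.11 ± 0.19 (adjusted p = 0.00563). Sqle had 25.6, 25.6, 27.9, 27.9 and 14.0 CPM with iron, against 64.5, 71.7, 49.8, 57.6 and 56.03 CPM in controls, a change of −1.31 ± 0.22 (adjusted p = 0.00452). For both genes iron 5 was the lowest library.

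Cyp51 had 56.01, 59.1, 57.1, 59.2 and 71.3 CPM with iron, against 140, 139, 101, 127 and 106 CPM in controls, a change of −1.02 ± 0.16 (adjusted p = 0.00327). Msmo1 had 41.3, 48.6, 51.8, 45.6 and 64.9 CPM with iron, against 127, 133, 88.1, 112 and 99.7 CPM in controls, a change of −1.15 ± 0.18 (adjusted p = 0.00362). In these enzymes iron 5 was the highest of the iron libraries, yet still below the lowest control. Nsdhl had 15.2, 18.03, 11.6, 16.5 and 5.15 CPM with iron, against 37.3, 42.4, 30.1, 39.0 and 34.6 CPM in controls, a change of −1.46 ± 0.30 (adjusted p = 0.0147). Sc5d, the remaining iron-holding enzyme, was at −0.86 ± 0.24 (adjusted p = 0.0544) over 10 libraries and fell by 0.64 ± 0.09 over 7 (adjusted p = 6.66e-05), so all 3 iron-holding enzymes were lower with iron in the 7 libraries.

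For other enzymes the call or the size of the change depended on the libraries that stood apart. In the 7 libraries Idi1 (−1.06 ± 0.17), Fdps (−1.09 ± 0.13), Fdft1 (−0.98 ± 0.12), Lss (−1.19 ± 0.09), Tm7sf2 (−0.99 ± 0.21) and Hsd17b7 (−1.03 ± 0.10) each fell to about the same extent on the log2 scale. Their values over 10 libraries were −1.75 ± 0.80, −0.31 ± 0.34, −0.27 ± 0.33, −1.54 ± 0.77, −0.78 ± 0.33 and −1.65 ± 0.54 in the same order, and none passed. Over 10 libraries every iron library still lay below every control for Idi1, Lss and Hsd17b7, as for 13.4% of all genes. The groups overlapped for Fdps, Fdft1 and Tm7sf2. Mvd fell by 0.87 ± 0.11 in the 7 libraries but had 0.21 ± 0.45 over 10. Its iron 5 value was 49.5 CPM, against 11.1 to 22.8 CPM in the other iron libraries. Mvk fell by 0.78 ± 0.11 over 7 libraries (−0.15 ± 0.32 over 10), Acat2 by 0.47 ± 0.14 (−0.10 ± 0.23 over 10) and Dhcr7 by 0.54 ± 0.10 (−0.54 ± 0.17 over 10, adjusted p = 0.0823). Lbr was the enzyme that rose in the 7 libraries, by 0.34 ± 0.10 (adjusted p = 0.0187), and was listed at 0 in iron 5. Not passing in either set were Pmvk (−0.31 ± 0.12 over 7; 0.84 ± 0.47 over 10), Ggps1 (−0.19 ± 0.08 over 7; −0.50 ± 0.28 over 10) and Ebp (−0.15 ± 0.10 over 7; 0.69 ± 0.36 over 10).

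Srebf2 fell with iron, unlike its level under DFO. It had 104, 91.2, 73.3, 93.8 and 60.2 CPM in the iron libraries, against 172, 159, 172, 158 and 144 CPM in controls. No iron library reached the lowest control, and the log2 change was −0.93 ± 0.17 over 10 libraries (adjusted p = 0.0089) and −0.72 ± 0.08 over 7. Scap had 61.3, 58.9, 68.7, 59.8 and 131 CPM with iron, against 74.3, 63.5, 88.5, 72.4 and 62.0 CPM in controls. It did not pass over 10 libraries (0.07 ± 0.25, adjusted p = 0.868) or over 7 (−0.19 ± 0.08, adjusted p = 0.0923). Without iron 5 alone the value was −0.22.

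Insig1 moved with the enzymes in these cultures. Its iron libraries read 31.1, 30.5, 28.5, 26.7 and 34.6 CPM, against 78.1, 83.6, 68.8, 75.2 and 70.2 CPM in controls, a change of −1.31 ± 0.15 (adjusted p = 0.000499) over 10 libraries and −1.38 ± 0.09 over 7. Of the 28 members Insig1 had the lowest adjusted p over 10 libraries, and the libraries that stood apart lay with their groups. Insig2 read 29.4, 36.6, 19.6, 35.1 and 15.8 CPM with iron, against 46.2, 47.6, 48.6, 46.7 and 47.0 CPM in controls. Those groups did not overlap either, but the change of −0.79 ± 0.24 did not pass over 10 libraries (adjusted p = 0.0733), and it was −0.48 ± 0.09 over 7 (adjusted p = 0.00079).

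Per length, Insig1 was the more abundant Insig transcript in every control stellate library, the reverse of hepatocytes; the 2 tables were normalised apart, so this was not tested. The ratio of Insig1 to Insig2 FPKM was 1.19, 0.937 and 0.852 in iron 1, 2 and 4, against 1.897, 1.97, 1.80 and 1.67 in controls 1, 2, 4 and 5, without overlap. Iron 3 and iron 5 read 1.63 and 2.46, and control 3 read 1.59, so over 10 libraries the groups overlapped. The summed Insig level was 17.9 ± 3.64 FPKM with iron and 37.7 ± 3.10 FPKM in controls (SD, n = 5 each).

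**Figure D4:**
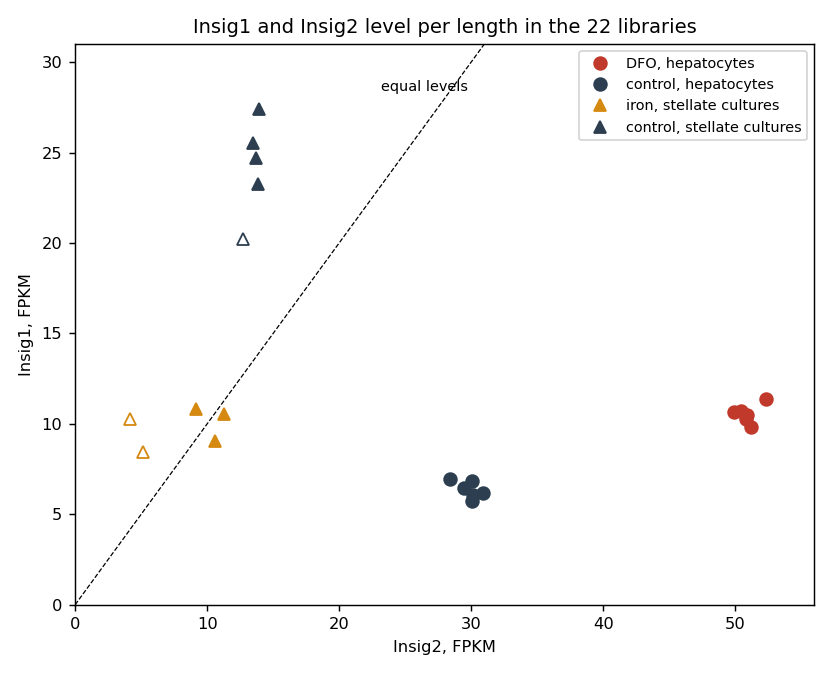
Insig1 (y axis, FPKM) against Insig2 (x axis, FPKM) in each of the 22 libraries; circles are hepatocytes, triangles stellate cultures, open symbols the stellate libraries control 3, iron 3 and iron 5, and the dashed line marks equal levels. DFO hepatocytes lie along the same direction from the origin as their controls (ratios 0.207 and 0.214), while iron cultures lie lower than their controls. In iron 1, 2 and 4 the ratio of Insig1 to Insig2 is also below that of every stellate control.

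Stard4 read 30.0, 28.5, 16.8, 24.0 and 5.60 CPM with iron, against 45.4, 50.4, 66.0, 46.1 and 42.4 CPM in controls. Every iron library was below every control, with a change of −1.25 ± 0.38 over 10 libraries (adjusted p = 0.071) and −0.74 ± 0.10 over 7 (adjusted p = 4.87e-05). Abcg1 rose in both sets, but its call over 10 libraries was lost in edgeR with the replicate block (adjusted p = 0.0536). It read 26.2, 26.4, 19.9, 17.4 and 16.4 CPM with iron, against 6.70, 4.14, 7.27, 6.58 and 4.99 CPM in controls, a 3.59-fold difference (1.84 ± 0.25, adjusted p = 0.00147) and 2.05 ± 0.18 on the log2 scale over 7 libraries.

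Abca1 read 150, 159, 51.4, 73.0 and 11.8 CPM with iron, against 41.0, 35.7, 107, 44.1 and 56.5 CPM in controls. Iron 5 was the lowest and control 3 the highest of its group, and the change was 0.65 ± 0.57 over 10 libraries (adjusted p = 0.482) but 1.52 ± 0.21 over 7 (adjusted p = 9.5e-05). Mylip read 13.9, 15.7, 3.95, 12.6 and 0 CPM with iron, against 7.69, 6.19, 4.00, 6.27 and 6.14 CPM in controls. Its change of 0.61 ± 0.82 did not pass over 10 libraries (adjusted p = 0.652), and over 7 it rose by 1.10 ± 0.13 (adjusted p = 2.61e-05). In the 7 libraries all 3 LXR-side genes were therefore higher with iron while 16 of 20 enzymes, Srebf2, Insig1, Insig2 and Stard4 were lower. Of all genes 38.1% passed in that fit (18.3% higher, 19.8% lower).

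**Figure D5:**
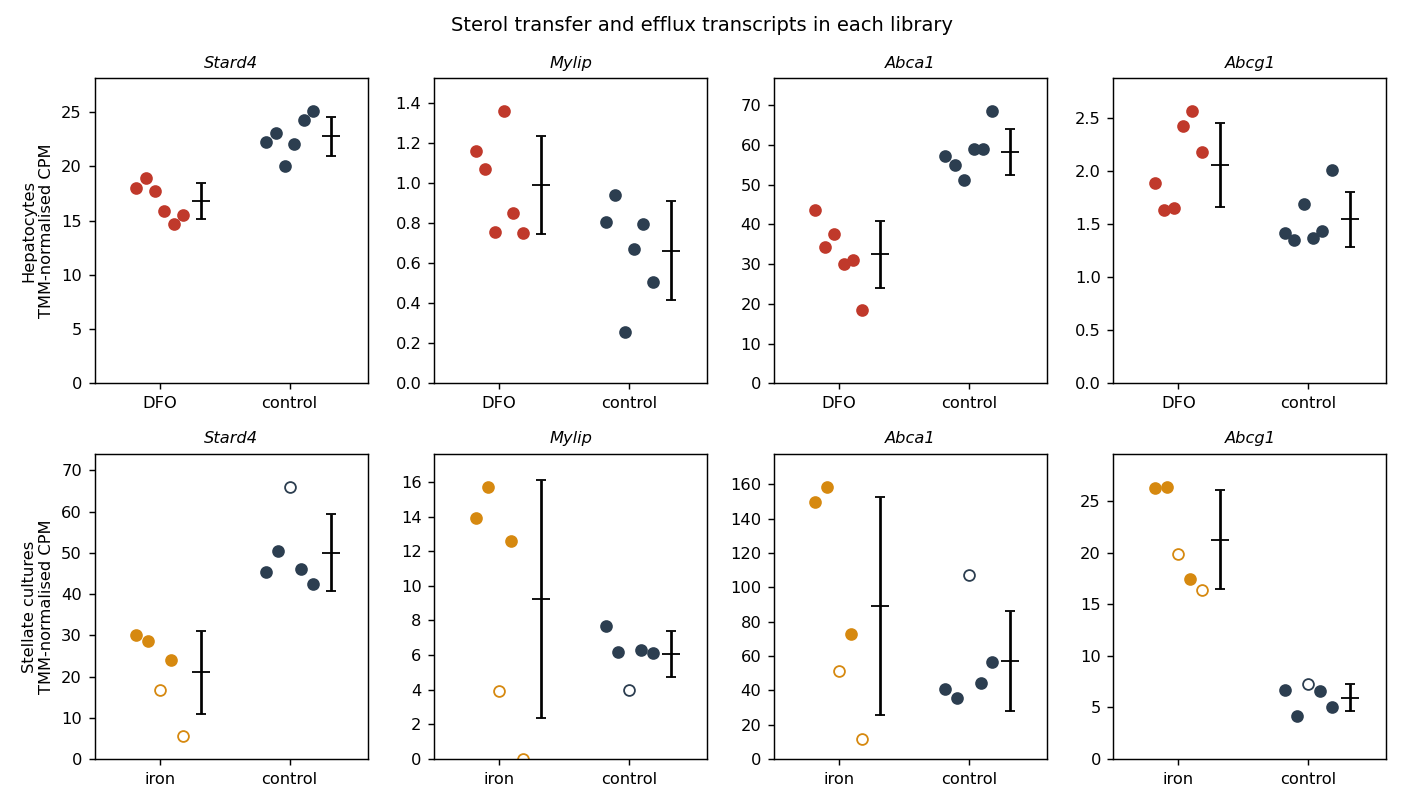
TMM-normalised CPM (y axis, from 0) of Stard4, Mylip, Abca1 and Abcg1 in every library of the hepatocytes (top) and stellate cultures (bottom); bars are mean ± SD, and open circles are stellate libraries control 3, iron 3 and iron 5. Abca1 lies lower with DFO in all 6 hepatocyte libraries, and Abcg1 lies higher with iron in all 5 stellate libraries.

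Of the surrounding lists, SREBP processing (11 genes), the prenyl branches (14) and the electron donors (7) had 0 calls over 10 stellate libraries by edgeR. Of all genes 7.42% passed there. At an unadjusted p under 0.05, with no all-gene share given here, they had 3, 0 and 1, all lower. DESeq2 called 0, 0 and 1, and 2895 of all genes. Of the 21 tested genes of sterol esters, transport, LXR and efflux, Arl4c, an LXR target, rose by 1.27 ± 0.22 (0.94 ± 0.09 over 7 libraries), and Scarb1, the HDL receptor, fell by 1.18 ± 0.13 (1.17 ± 0.07 over 7). Over the 7 libraries, where 38.1% of all genes passed (19.8% lower, 18.3% higher), the same 4 lists had 5 lower and 1 higher of 11, 3 lower and 1 higher of 14, 5 lower and 0 higher of 7, and 7 lower and 8 higher of 21. Rnf145, which rose under DFO, was at 0.39 ± 0.23 (adjusted p = 0.284) over 10 libraries and rose by 0.70 ± 0.06 over 7.

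Set side by side, 16 of 20 enzymes fell and 2 rose with DFO in hepatocytes, and with iron in stellate cultures 5 fell and 15 did not pass over 10 libraries (16 fell and 1 rose over 7). Of all genes, 30.1% fell and 27.9% rose with DFO. With iron 3.37% fell and 4.05% rose over 10 libraries, and 19.8% fell and 18.3% rose over 7. These shares differ, so the enzyme counts cannot be compared directly. Insig1 was at 0.76 ± 0.05 with DFO and −1.31 ± 0.15 with iron, Insig2 at 0.81 ± 0.04 with DFO and −0.79 ± 0.24 with iron, Srebf2 at 0.01 ± 0.05 with DFO and −0.93 ± 0.17 with iron, and Abca1 at −0.85 ± 0.14 with DFO and 0.65 ± 0.57 with iron (10 libraries). Cell type, treatment and table differ together here, so these differences cannot be told apart and were not tested.

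Several members carry uncertain counts, as no strand setting is stated. Acat2 shares 97.7% identity over 1477 bases with Acat3, which had 335% of its counts in hepatocytes and 6.38% in stellate cultures and changed by −0.17 ± 0.06 with DFO, and it also shares transcript sequence with Tcp1. Fdft1 overlaps the far more abundant Ctsb on the opposite strand over 774 bases, and Ctsb rose by 0.52 ± 0.05 with DFO and 1.02 ± 0.17 with iron. Idi1 shares 684 identical bases with Gm13502, which had 7.13% of its counts in hepatocytes and changed by −1.28 ± 0.33. Fdps has the copy Gm3571, with 13.3% of its counts in hepatocytes, and Tm7sf2 shares 532 bases with Vps51. Ggps1 and Cyp51 overlap Arid4b and Akap9 by 257 and 166 bases on the opposite strand. With DFO Arid4b changed by 0.35 ± 0.10, in the direction of Ggps1, and Akap9 by −0.06 ± 0.13. Tcp1 changed by −0.28 ± 0.05 and Vps51 by −0.13 ± 0.07 with DFO. In hepatocytes Arid4b had 163% of the counts of Ggps1, Tcp1 2270% of those of Acat2 and Vps51 558% of those of Tm7sf2. The part of shared reads in these values was not tested.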

How the data were processed

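RNA-seq of 22 libraries was read from 2 deposited tables. Per the labels' protocols, RNA was extracted with a Zymo kit and sequenced on a HiSeq instrument; the protocol names a small RNA kit and 4 biological replicates a group, whereas the labels list 6 and 5. The deposited tables give raw counts of reads for each Ensembl gene, as whole numbers. The deposited FPKM values were made by the authors from those counts: 100% of values above 1 lay within 1% of counts per kilobase of the exonic size and per 1000000. The tools and build named are HISAT2 2.0.1, cutadapt 1.9.1 and mm10, per the submitters' processing notes; for the counting program and strand setting, nothing is stated. Replicates were compared by a chi-square test of their counts. The lowest ratio of chi-square to degrees of freedom was 3.44 (hepatocytes) and 5.59 (stellate cultures), so none was the same library sequenced again. This cannot tell whether separate libraries came from the same culture or animal.

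Each cell type was fitted alone with edgeR 4.0.16 (R 4.3.3; quasi-likelihood test, two-sided, TMM, filterByExpr), with Benjamini-Hochberg adjustment over the 15660 and 15502 genes tested and 0.05 as threshold; SE is the log2 change divided by the root of F. The 7-library fit tested 16287 genes. CPM uses TMM factors from all libraries of the cell type. Alternatives were DESeq2 1.42.0, RLE scaling, no filter, limma 3.58.1 on log2 FPKM with pseudocounts of 1 and 0.1 (genes reaching 0.5 FPKM), voom with quality weights, a replicate block, each library left out, and the 7 libraries. The fits were tested on simulated data. Near copies were sought with BLAST 2.17.0 in GENCODE transcripts (identity of at least 95% over at least 200 bases).

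The members, the lists around them and the 7 libraries were chosen with earlier results of these data known. All 28 members are named; values by library are given for the regulators, Stard4, the LXR side and the 5 enzymes of smallest p in each comparison, and up to 4 called genes of smallest p from each surrounding list, with Rnf145 in the stellate cultures because it was named in hepatocytes. One gene that this rule would name is not reported here.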

Additional observations from a re-analysis of the deposited data

Results flagged for a closer look

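In 8 of 112 sets (a member in a group of libraries) the highest or lowest library lay farther from the rest than Dixon's 95% limit; chance flags about 1 in 20. Of these, 5 were iron 5 and 2 control 3, both among the libraries that stood apart. Iron 5 read 35.3 CPM for Hmgcs1 (59.0 to 64.9 in the other iron libraries), 14.0 CPM for Sqle (25.6 to 27.9) and 0 for Lss (16.1 to 22.3), all low. The same library read 71.3 CPM for Cyp51 (56.01 to 59.2) and 131 CPM for Scap (58.9 to 68.7), both high. Control 3 read 5.88 CPM for Pmvk (16.1 to 20.2 in the other controls) and 17.0 CPM for Ebp (32.4 to 36.1). In hepatocytes, DFO library 6 read 58.1 CPM for Fdft1 (45.6 to 50.1 in the other DFO libraries), still below every control.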

How the results depend on the processing

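In hepatocytes the count of enzymes lower stayed at 15 to 17 in every alternative, and the count higher was 1 without the filter, with either limma fit and with the replicate block, and 1 to 2 with a library left out. In stellate cultures the 5 enzymes lower became 8 with DESeq2 and with limma on log2(FPKM + 1), 17 with voom quality weights and 0 with the replicate block. They became 16 in the 7 libraries, and 16 with the block in libraries 1, 2 and 4 of each group, which leaves out control 5. With a library left out they were 5 to 9. In the 7 libraries and in that smaller block fit 1 enzyme was higher. Genes past the threshold numbered 2895 with DESeq2, 6319 with voom, 175 with the block and 6212 in the 7 libraries. They numbered 5139 with the block in libraries 1, 2 and 4, and 605 to 2462 with a library left out. Same-numbered libraries did not deviate together, with correlations from −0.387 to 0.033 in hepatocytes and from −0.493 to 0.216 in stellate cultures. In hepatocytes 0 of 6, and in stellate cultures 1 of 5, correlated best with their own number. Correlations in so few libraries cannot tell whether a number marks a shared animal or day, and the labels do not say. The block in libraries 1, 2 and 4 was added after the data were seen.

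Changes of sign were as follows, the cause not tested. Srebf2 with DFO was −0.0242 and −0.0256 in the limma fits on log2(FPKM + 1) and log2(FPKM + 0.1) and −0.00602 to 0.0360 with a library left out, and Msmo1 −0.0521 to 0.00189. In stellate cultures signs changed with voom, in the 7 libraries and with the block in libraries 1, 2 and 4. In that order the values were −0.35, −0.31 and −0.34 for Pmvk, −0.88, −0.87 and −0.91 for Mvd, and 0.37, 0.34 and 0.38 for Lbr. They were −0.22, −0.15 and −0.19 for Ebp, and −0.19, −0.19 and −0.23 for Scap. Mvd was −0.0209 with the block over 10 libraries, and Mylip −0.21 with limma on log2(FPKM + 0.1). With a library left out Acat2 ran from −0.23 to 0.00456, Mvd from −0.38 to 0.37, Lbr from −0.50 to 0.0587 and Scap from −0.22 to 0.15. With the edgeR replicate block over 10 stellate libraries, Srebf2 (adjusted p = 0.0867), Abcg1 (0.0536) and Arl4c (0.0902) lost their calls. In hepatocytes, Scap, Mylip and Lss passed the threshold in some alternatives and Abcg1, Pmvk and Ggps1 lost it in some. Mylip and Abcg1 were the members of lowest level there, at 0.992 and 2.05 CPM with DFO against 0.663 and 1.54 CPM in controls.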
